A study of Mus musculus with 16 samples.

Results

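Regulatory-like CD4 T cells were taken from a CITE-seq data set of mouse spleen as the cells of a CD4 antibody gate that held 2 or more UMIs, summed over Foxp3, Ikzf2, Ctla4 and Il2ra. Members were thus chosen by their counts of 4 antibodies and of these 4 transcripts. CITE-seq reads polyadenylated RNA, counted as unique molecular identifiers (UMIs), and DNA-tagged antibodies from the same droplet. The gate took cells with at least 40 raw T-cell receptor (TCR) counts, at least 100 CD4 counts, under 15 CD8a counts and under 100 B220 counts. It held 327 of 7097 cells, and 69 of these were members, 36 in library Main1 and 33 in library Main2. The reference was the 227 gate cells with 0 UMIs of the same 4 genes (117 in Main1, 110 in Main2), and 31 gate cells with 1 such UMI (20 and 11) belonged to neither. Every cell came from spleens of female BALB/cJ mice 9 months old, so members and reference shared strain, age, tissue and library. Per the labels 2 spleens were used, and whether each library came from its own spleen is not stated there. P-values therefore rest on how far the differences between populations varied across 2 libraries that may be technical repeats. For each gene, edgeR also borrows from the spread of the other genes.

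Regulatory T cells restrain the responses of other lymphocytes. FOXP3 is their lineage-defining transcription factor, and Helios, encoded by Ikzf2, is carried by many of them. The interleukin-2 receptor alpha chain (Il2ra) gives them high-affinity uptake of interleukin-2, a growth factor they do not make well themselves, and CTLA-4 (Ctla4) competes for B7 ligands on antigen-presenting cells. OX40 (Tnfrsf4) and GITR (Tnfrsf18) are costimulatory receptors of the tumour necrosis factor receptor family that these cells carry at high level in mice, and folate receptor 4 (Izumo1r) marks them on the surface. Helios, CTLA-4, OX40 and folate receptor 4 are also found on activated or other CD4 T cells, so no single one of them defines the lineage.

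The promoters of Tnfrsf4, Tnfrsf18 and Izumo1r are shown because these genes took no part in the choice of members, belong to the regulatory T list and were higher in the members. Each run is the 250 bases before the RefSeq transcript start on GRCm38.p6, in the direction of transcription. Capitals mark the searched motifs, namely a forkhead motif (GTAAACA), a RUNX motif (TGTGGT) and an NFAT core (GGAAA), each also as its reverse complement, with no overlap between matches here. Tnfrsf4 lies at chr4:156013445-156013694 (plus strand), Tnfrsf18 at chr4:156026072-156026321 (plus strand) and Izumo1r at chr9:14903768-14904017 (minus strand).
Tnfrsf4: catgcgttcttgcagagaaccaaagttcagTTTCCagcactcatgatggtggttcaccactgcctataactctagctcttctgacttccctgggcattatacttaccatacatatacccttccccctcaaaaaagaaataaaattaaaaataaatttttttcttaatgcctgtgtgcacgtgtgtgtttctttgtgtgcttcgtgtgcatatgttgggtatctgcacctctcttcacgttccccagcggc
Tnfrsf18: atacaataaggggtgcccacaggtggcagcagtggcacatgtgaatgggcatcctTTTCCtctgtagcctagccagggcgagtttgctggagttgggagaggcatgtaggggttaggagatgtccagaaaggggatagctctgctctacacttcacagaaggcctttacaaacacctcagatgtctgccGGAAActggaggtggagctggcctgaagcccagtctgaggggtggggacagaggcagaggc
Izumo1r: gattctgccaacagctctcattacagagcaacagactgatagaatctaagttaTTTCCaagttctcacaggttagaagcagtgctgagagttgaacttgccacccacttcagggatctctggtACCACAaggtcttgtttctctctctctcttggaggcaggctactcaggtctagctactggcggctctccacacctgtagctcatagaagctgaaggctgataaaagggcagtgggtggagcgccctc
The NFAT core occurred 1 time in the Tnfrsf4 window, 2 times in that of Tnfrsf18 and 1 time in that of Izumo1r. It occurred in 55.6% of all 32851 RefSeq promoter windows of this length. The RUNX motif was present in the Izumo1r window alone, against 14.0% of all windows, and the forkhead motif in none of the 3, against 3.17% of all windows. Tnfrsf4 and Tnfrsf18 are neighbours on chromosome 4, with 9551 bases between them in the GENCODE vM21 annotation.

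The members made up 20.8% of the gate in Main1 and 21.4% in Main2, or 21.1% over both (95% exact binomial interval 16.8 to 25.9), and 0.972% of all cells. Intervals cover counting error only. The choice of members rested mainly on Ikzf2, of which 63 of 69 members had a UMI. Foxp3 was read in 25 members, Ctla4 in 22 and Il2ra in 17. The largest combination was Ikzf2 alone, in 23 members, followed by Ikzf2 with Foxp3 in 12 and Ikzf2 with Ctla4 in 10. The 4 genes gave a median of 4 UMIs per member and a highest value of 23. Just inside the threshold lay 13 members with 2 UMIs, and just outside it the 31 cells with 1 UMI, 20 of which had it in Ikzf2. These values chose the cells and are given as a description.

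**Figure D1:**
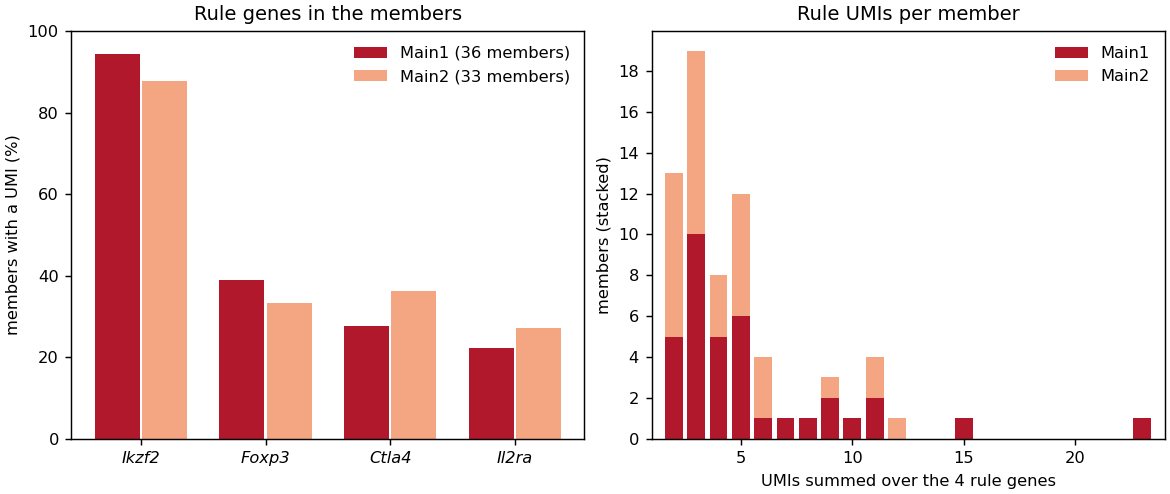
Left, the share of members (%) with at least 1 UMI of each rule gene, by library; Ikzf2 was read in 94.4% of Main1 and 87.9% of Main2 members. Right, the number of members by their UMIs summed over the 4 rule genes, libraries stacked; most members hold 2 to 5 such UMIs.

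In a B-cell gate, whose cells should lack these transcripts, 36 of 4372 cells (0.823%) had 1 or more rule UMIs and 0 had 2 or more, which allows a share of up to 0.0686% (3 of 4372 cells). Of all cells with 2 or more rule UMIs, 134 of 203 lay outside the CD4 gate, and 102 of these 134 had both TCR at or above its limit and CD8a counts at or above 15. The 134 cells had a median of 6073 UMIs, with 68 over 6000. The 102 had a median of 7887.5 UMIs, with 66 over 6000, and 53 cells failed the CD8a limit alone. The 134 cells are in none of the comparisons below.

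Depth was similar but not equal between the populations. Members had medians of 2649 (Main1) and 1850 UMIs (Main2), and reference cells 1884 and 1966. When every member was thinned to 1000 UMIs, 41.9 of 69 would on average still have held 2 or more rule UMIs. No member shared its barcode with a cell of the other library, and 14 barcodes were shared among all cells. Levels are given as CPM, a gene's UMIs divided by all UMIs of the same cells and multiplied by 1000000. B-lineage transcripts were present in both populations: 13 B-cell markers summed to 18288 (Main1) and 13946 CPM (Main2) in members, against 3266 and 56301 in the reference. A single droplet held 55.0% of them in the members and 48.9% in the reference. Of the 13 B-cell markers only 2 were at 0 in members, among them Pax5, a transcription factor that defines the B lineage. Cd8a was also at 0 in members. The list of 2 CD8 T-cell markers still summed to 26.6 and 12.7 CPM in members, against 16.8 and 29.1 in the reference. Plasma-cell markers summed to 7398 and 1510 CPM in members, against 168 and 3062 in the reference, and myeloid markers to 1453 and 1180, against 533 and 977. A B-cell UMI was found in 47.8% of members and 37.4% of reference cells. Gene results without droplets that held a B-cell UMI or over 6000 UMIs are given below. They rest on 20 members in Main1 and 15 in Main2, and on 74 and 67 reference cells.

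Against the reference, the members carried more RNA of regulatory T receptors, of the transcription factor Maf and of S100 and galectin genes, and less of naive T-cell genes and of several ribosomal protein genes. In edgeR's quasi-likelihood test on UMIs summed per library and population, with library as a block, 59 of 1792 genes (3.29%) passed a Benjamini-Hochberg adjusted p of 0.05. Of these 36 were higher and 23 lower in members. The 4 rule genes are left out. Without droplets that held a B-cell UMI or over 6000 UMIs, 40 of the 59 genes could be tested, and all 40 kept their direction. The call was kept by 23 of them and lost by 17, and the other 19 were too low to test. Among the 24 genes named by size of change 10 kept the call, 6 lost it (Tnfrsf4, Ccr7, Arl4c, Gm12840, Bcl2 and Ms4a4b) and 8 were too low, Maf and Il2rb among them. Levels below are CPM and fold changes are log2 values with their standard error.

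The marker genes that the rule did not use were Tnfrsf4 and Izumo1r. Tnfrsf4 was at 416 (Main1) and 533 CPM (Main2) in members, against 71.4 and 36.3 in the reference, a log2 fold change of 3.04 ± 0.34 (edgeR adjusted p = 1.3e-04). Izumo1r was at 789 and 825 CPM in members and at 302 and 160 in the reference, a log2 fold change of 1.75 ± 0.26 (edgeR adjusted p = 9.2e-04). For both genes the lower member library lay above the higher reference library, but how many of all genes tested did so was not counted. A UMI of Tnfrsf4 was found in 35 of 69 members (50.7%), in 13 of 227 reference cells (5.73%) and in 0.435% of B-gate cells, whose median depth was 1616.5 UMIs. A UMI of Izumo1r was found in 73.9% of members, 24.7% of reference cells and 0.984% of B-gate cells. After thinning each cell to 1000 UMIs, the shares were 29.7% and 3.34% for Tnfrsf4 and 52.5% and 16.4% for Izumo1r, in members and reference. Without B-gene or large droplets, Izumo1r had a log2 fold change of 1.43 (edgeR adjusted p = 0.029) and Tnfrsf4 one of 2.08 (edgeR adjusted p = 0.055).

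The list of 22 regulatory T genes had 19 in the table. Only 5 of them reached the 50 UMIs needed for a test, and all 5 were higher in members, which is no support in itself since a gene read mainly in members passes the limit through them. Besides the markers these were Tnfrsf18, Il2rb and Capg. Tnfrsf18 was at 363 and 558 CPM in members, against 109 and 102 in the reference (log2 fold change 2.02 ± 0.30, edgeR adjusted p = 9.2e-04). It had a UMI in 55.1% of members, 21.1% of reference cells and 5.70% of B-gate cells. Il2rb encodes the interleukin-2 receptor beta chain and was at 159 and 178 CPM in members, against 46.2 and 43.6 in the reference (1.78 ± 0.41, edgeR adjusted p = 0.023). Capg encodes an actin-capping protein and was at 381 and 520 CPM in members, against 172 and 160 in the reference (1.33 ± 0.23, edgeR adjusted p = 0.0038). Capg was also read in 54.3% of B-gate cells, so B-cell RNA carries this transcript. In none of these genes did the member and reference libraries overlap. They had already passed the test, and the share without overlap among all genes tested was not counted.

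The other 14 listed genes were too low to test and are given as sums over both libraries, of 191665 UMIs in members and 513540 in the reference. Nrp1 (neuropilin-1, a receptor of thymus-derived regulatory T cells in mice) had 27 UMIs in members, against 12 in the reference. Icos (a costimulatory receptor) had 23 and 13, Tnfrsf9 (4-1BB) 20 and 2, Ikzf4 (Eos, a FOXP3 partner) 16 and 7, and Gpr83 13 and 9 UMIs in members and reference. Cd83 had 14 UMIs in members and 4 in the reference, and Il1rl1, the receptor of interleukin-33, 4 and 0. Lag3, an inhibitory receptor, had 17 and 22 UMIs, of which Main1 gave the reference 84.0 CPM and Main2 7.27. Tnfrsf1b had 8 and 7 UMIs in members and reference, Itgae 4 and 1, Nt5e 9 and 6, Entpd1 2 and 3, Klrg1 9 and 6, and Socs2 16 and 19. Over both libraries the CPM was higher in members for all 14 genes, untested and at low counts. The share of other untested genes with a higher CPM in members was not counted. Without it this count is no result about the list.

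**Figure D2:**
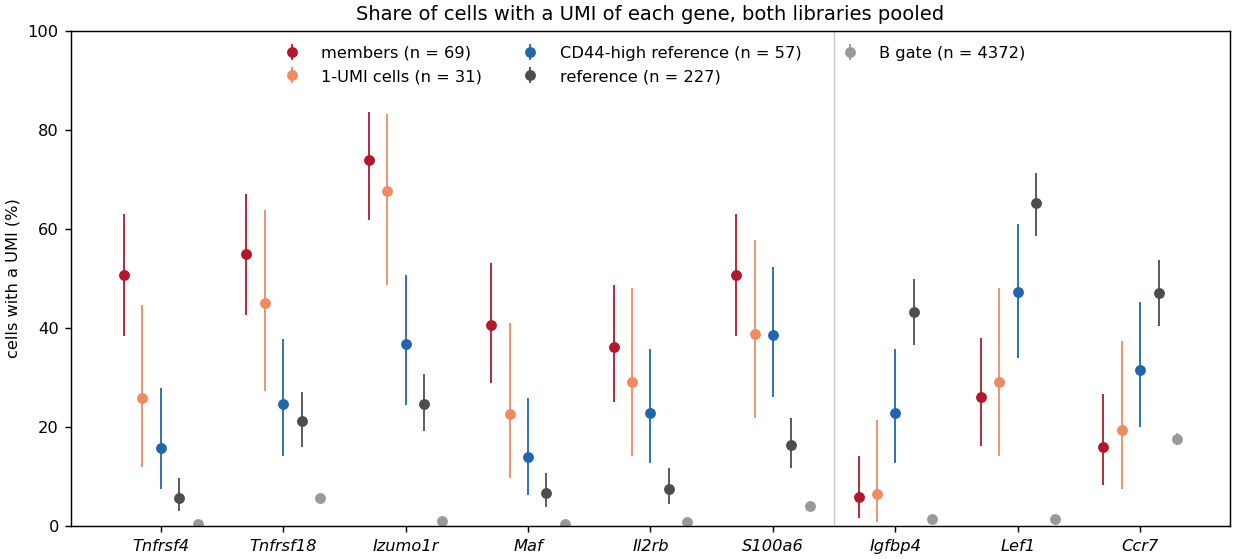
Share of cells (%) with at least 1 UMI of a gene, over both libraries, with 95% exact binomial intervals that cover counting error only. Populations run from members through cells with 1 rule UMI, CD44-high reference and reference to the B gate; the first 6 genes are highest in members (50.7% for Tnfrsf4) and the last 3 highest in the reference (43.2% for Igfbp4).

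Maf had the largest rise among the named genes. It encodes c-MAF, a transcription factor of effector and interleukin-10-producing T cells, and was at 266 and 305 CPM in members, against 25.2 and 36.3 in the reference (log2 fold change 3.05 ± 0.43, edgeR adjusted p = 8.1e-04). It had a UMI in 40.6% of members, 6.61% of reference cells and 0.435% of B-gate cells. Of the list of 26 T-cell transcription factors 13 were tested, and besides Maf only Lef1 passed, against 3.29% of all genes. Batf (106 and 178 CPM in members, 63.0 and 47.2 in the reference) and Foxp1 (124 and 76.1 in members, 222 and 247 in the reference) did not pass, at edgeR adjusted p = 0.13 and 0.073. Tox and Rora, below the limit for a test, had 25 and 18 UMIs in members and 20 and 11 in the reference.

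Genes of the effector and memory list formed the next group. Of 17 listed genes 14 were tested and 6 passed, all higher in members, against 3.29% of all genes. The 14 had a median log2 fold change of 0.94, against -0.02 over all genes tested. Here too, a gene read mainly in members passes the limit for a test through them. S100a6, a calcium-binding protein, was at 975 and 990 CPM in members, against 151 and 196 in the reference (log2 fold change 2.43 ± 0.24, edgeR adjusted p = 4.1e-05). S100a4 was at 363 and 279 in members, against 113 and 47.2 in the reference (1.94 ± 0.36, edgeR adjusted p = 0.0054). S100a10 and S100a11 rose by 1.28 and 1.14, and Lgals1, which encodes galectin-1, was at 1834 and 1421 CPM in members, against 831 and 519 in the reference (1.20 ± 0.19, edgeR adjusted p = 0.0015). Lgals3 also passed, but 1 droplet held 29.0% of its member UMIs. S100a6 had a UMI in 50.7% of members, 16.3% of reference cells and 4.12% of B-gate cells.

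The remaining named genes that were higher in members encode a chemokine receptor (Ccr2), a regulator of G-protein signalling (Rgs1), a MAX-binding repressor (Mxd4), an SH3-domain-binding protein (Sh3bgrl) and a chemokine-like membrane protein (Cmtm7). Ccr2 was at 239 and 254 CPM in members, against 67.2 and 40.0 in the reference (4.31-fold higher, edgeR adjusted p = 0.0070). Rgs1 was at 133 and 228 in members, against 33.6 and 40.0 in the reference (2.17 ± 0.41, edgeR adjusted p = 0.0054). Mxd4, Sh3bgrl and Cmtm7 rose by 2.21, 2.16 and 2.15 on the log2 scale. Of the 18 genes of the homing and chemokine receptor list in the table, 8 were tested. Ccr2 was the only one to pass as higher and Ccr7 the only one as lower, against 3.29% of all genes.

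Other genes that passed and were higher in members lay outside the named set. Ifi27l2a, an interferon-induced gene, was at 2375 and 1802 CPM in members, against 814 and 672 in the reference (log2 fold change 1.40 ± 0.18, edgeR adjusted p = 3.6e-04). It was the only one of 5 tested genes of the interferon list to pass, against 3.29% of all genes. The long non-coding transcript AW112010 was at 2357 and 2843 in members, against 1100 and 832 in the reference (1.33 ± 0.18, edgeR adjusted p = 5.1e-04). Among the follicular helper genes Sh2d1a, encoding the adaptor SAP, rose by 1.47, and among 5 tested genes of the T-cell receptor response Nfkbia, the NF-kappa-B inhibitor, rose by 0.89, a call that 8 of 14 alternative settings ended. None of the 12 helper cytokine genes reached the limit for a test. Igha and Lyz2 passed through single droplets, which held 97.2% and 82.8% of their member UMIs.

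Naive T-cell genes were lower in members. All 10 listed genes were tested, 4 passed, all lower, against 3.29% of all genes, and each of the 10 had a negative log2 fold change, with a median of -1.27 against -0.02 over all genes tested. Igfbp4, a binding protein of insulin-like growth factors that is typical of naive CD4 T cells in mice, was at 44.3 and 12.7 CPM in members, against 562 and 331 in the reference (log2 fold change -3.93 ± 0.38, edgeR adjusted p = 4.1e-05). It had a UMI in 4 of 69 members and 98 of 227 reference cells. Lef1, a transcription factor of naive and early T cells, was at 168 and 114 CPM in members, against 663 and 596 in the reference (-2.22 ± 0.27, edgeR adjusted p = 1.9e-04). Ccr7, the chemokine receptor that leads to T zones, was at 159 and 50.8 in members, against 332 and 349 in the reference (-1.67 ± 0.38, edgeR adjusted p = 0.022). Dapl1 had 3 UMIs in members, all in 1 cell, and 123 UMIs in the reference, a ratio of CPM of 0.0654 (95% counting interval 0.0133 to 0.196). In none of these 4 genes did the libraries of members and reference overlap. All 4 had passed the test, and the share without overlap among all genes tested was not counted.

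The other 6 naive genes did not pass. Tcf7, which encodes the transcription factor TCF-1, was at 151 and 76.1 CPM in members and at 227 and 294 in the reference (log2 fold change -1.22 ± 0.37, edgeR adjusted p = 0.093). Satb1, S1pr1 and Klf2 had log2 fold changes of -1.32, -1.09 and -0.99. Il7r, whose product is low on regulatory T cells of mice and humans, was at 142 and 140 CPM in members and at 214 and 178 in the reference (-0.55 ± 0.34, edgeR adjusted p = 0.49).

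Further named genes that were lower in members were Klhdc1, the kinase gene Txk, the small GTPase gene Arl4c, the non-coding Gm12840, the survival gene Bcl2, Ms4a4b and the ribosomal protein genes Rps29 and Rps27rt. Klhdc1 had 2 UMIs in members and 58 in the reference, a ratio of CPM of 0.0924 (95% counting interval 0.0109 to 0.349). Txk was at 35.4 and 102 CPM in members, against 218 and 331 in the reference (log2 fold change -2.16 ± 0.38, edgeR adjusted p = 0.0037). Bcl2 was at 239 and 381 in members, against 583 and 527 in the reference (-0.97 ± 0.23, edgeR adjusted p = 0.028). Of 14 alternative settings, 8 ended the Bcl2 call and 7 each those of Arl4c and Ms4a4b. Rps29 was at 8098 and 7665 CPM in members, against 13294 and 12226 in the reference (-0.78 ± 0.10, edgeR adjusted p = 2.3e-04). Of 80 tested ribosomal protein genes, a group chosen after values were seen, 10 passed, all lower, against 3.29% of all genes. Rps27rt shares near-identical sequence with Rps27, so reads may be split between them. Ribosomal protein genes took 27.9% and 26.4% of all UMIs in members, against 33.2% and 31.2% in the reference.

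**Figure D3:**
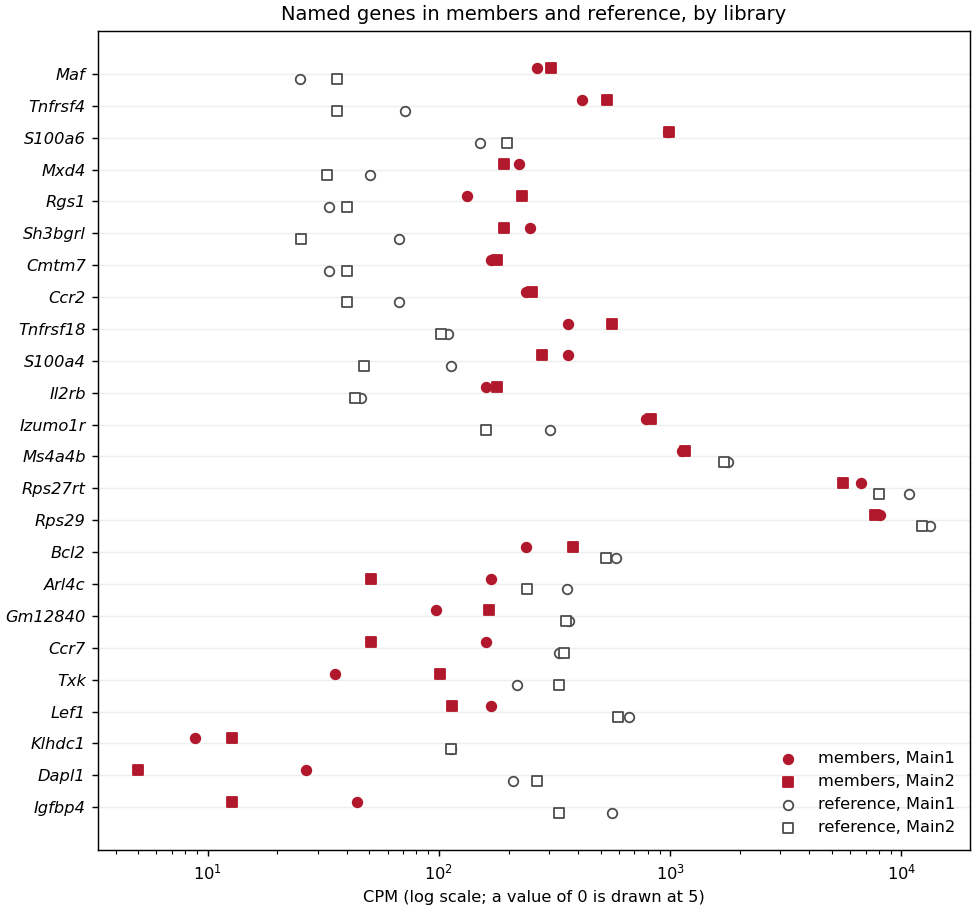
CPM (log axis, 0 drawn at 5) of the named genes in members (filled) and reference (open), Main1 as circles and Main2 as squares. Genes run from the highest to the lowest log2 fold change. For each gene shown both member libraries lie on the same side of both reference libraries, as for Tnfrsf4 (416 and 533 against 71.4 and 36.3). The genes were chosen as passing the test with the same sign in both libraries, so this is largely built in.

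Of 14 general T-cell identity genes 14 were tested and 0 passed edgeR's test, 0 at an unadjusted p under 0.05 and 0 with DESeq2, with a median log2 fold change of 0.11. With 3.29% of all genes passing, a count of 0 among 14 is near the background and is no result about this list. Trac was at 1134 and 1129 CPM in members and at 860 and 904 in the reference (log2 fold change 0.27 ± 0.18, edgeR adjusted p = 0.52). Cd3g was at 1072 and 1599 in members and at 1175 and 1144 in the reference, so its libraries overlapped. Cd4 transcripts were at 168 and 203 in members and at 155 and 138 in the reference (0.24 ± 0.31, edgeR adjusted p = 0.78).

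Members with and without a Foxp3 UMI were set side by side, since Foxp3 was read in 25 of 69. This is a description, because the rule uses Foxp3. Tnfrsf4 was at 336 and 521 CPM in the 25 members with Foxp3 and at 482 and 540 in the 44 without it. Izumo1r was at 554 and 625 with Foxp3 and at 979 and 939.5 without it. It was lower in members with Foxp3 in both libraries, as were Tnfrsf4 and the general T-cell genes Cd3e and Cd3g. Cd3e was at 692 and 834 with Foxp3 and at 1381 and 1539 without it. Cd3g was at 652 and 1320 with Foxp3 and at 1413 and 1759 without it. For Trac the direction differed between the libraries. Lef1 was at 98.9 and 34.7 with Foxp3 and at 225 and 160 without it, and Il2rb at 217 and 208 with Foxp3 and at 112 and 160 without it. In the 23 members chosen through Ikzf2 alone, 43.5% had a UMI of Tnfrsf4 (95% interval 23.2 to 65.5) and 73.9% one of Izumo1r. Counted without Ikzf2, the rule left 11 genes past the threshold, all 11 among the 59. With members taken as gate cells with a Foxp3 UMI, 10 genes passed, all among the 59, and the calls of Izumo1r (log2 fold change 1.24, edgeR adjusted p = 0.12) and Tnfrsf18 (1.71, edgeR adjusted p = 0.12) were lost.

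Cells with 1 rule UMI lay near the members in some genes and between the populations in others. Izumo1r was read in 67.7% of them (95% interval 48.6 to 83.3), against 73.9% of members and 24.7% of the reference. Tnfrsf4 was read in 25.8% of them (11.9 to 44.6), and Igfbp4 in 6.45%, against 5.80% of members and 43.2% of the reference. With 31 such cells these intervals are wide.

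The antibody panel had 26 antibodies outside the rule. CD44, a marker of antigen-experienced T cells, had medians of 235 (Main1) and 213 counts per cell (Main2) in members, against 70 and 71.5 in the reference, with 157 and 160 in cells of 1 rule UMI. Relative to the scaled total of these 26 antibodies, CD44 was higher in members by 0.65 ± 0.13 on the log2 scale (edgeR adjusted p = 0.0086). CD90 was lower by this scaling (-0.26 ± 0.06, edgeR adjusted p = 0.018), but had medians of 870.5 and 722 counts in members and 673 and 768 in the reference, and on counts per cell its log2 fold change was 0.18. These were 2 of 26 antibodies (7.69%). CD71, the transferrin receptor, had medians of 11 and 8 counts in members and 4 and 6 in the reference (0.80 ± 0.25, edgeR adjusted p = 0.070). CD27, a costimulatory receptor, had medians of 78 and 72 in members and 37 and 45 in the reference (0.43 ± 0.19, edgeR adjusted p = 0.16). Nearer the threshold than CD27, but not past it, were Ly6C (0.86 ± 0.31), CD31 (-0.62 ± 0.23) and Ly6G (-1.11 ± 0.38), each at edgeR adjusted p = 0.085. So was IgM (-0.71 ± 0.27, edgeR adjusted p = 0.089). Members also had more antibody counts in all, with medians of 3138 and 2581 per cell, against 2253 and 2448.5. Without droplets that held a B-cell UMI or over 6000 UMIs, 0 antibodies passed edgeR's test (3 at an unadjusted p under 0.05), and CD44 had a log2 fold change of 0.85.

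**Figure D4:**
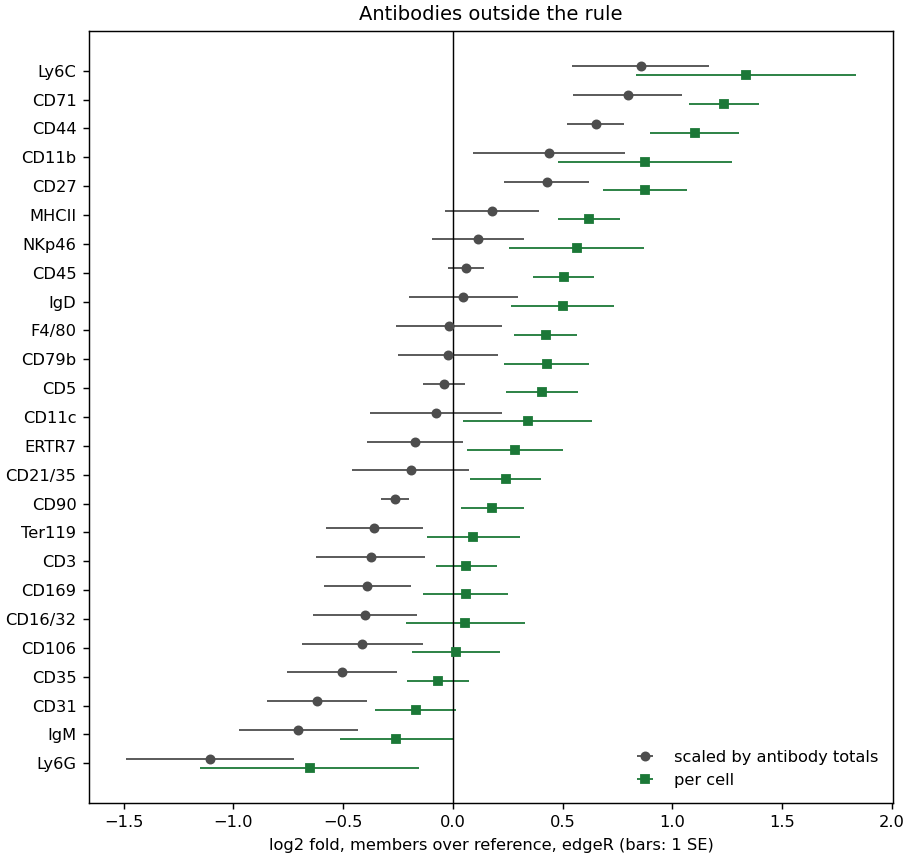
Log2 fold changes of antibodies outside the rule, members over reference, with bars of 1 standard error. They were scaled by the totals of the antibodies outside the rule (circles) or per cell (squares). CD44 lies above 0 under both scalings, at 0.65 and 1.10, while CD90 lies at -0.26 and 0.18.

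Members were more often CD44-high than the reference. The upper tertile of CD44 counts in the gate held 61.1% of members in Main1 and 63.6% in Main2, against 25.6% and 24.5% of reference cells. The members were therefore also set against the 57 reference cells of this tertile, 30 in Main1 and 27 in Main2. All members were kept, 43 of 69 of them in this tertile, so the 2 sides were not matched for CD44. Median CD44 counts were 305 and 274 in the CD44-high reference, against 235 and 213 in members. In this comparison 0 of 945 genes (0%) passed edgeR's test at an adjusted p of 0.05, with 104 at an unadjusted p under 0.05, and DESeq2 also called 0. The CD44-high reference of Main2 held 5 droplets of over 6000 UMIs, and its B-cell markers summed to 131114 CPM, against 13946 in Main2 members. Without droplets that held a B-cell UMI or over 6000 UMIs, 404 genes were tested and 0 passed. That fit kept 20 members in Main1 and 15 in Main2, and 17 and 14 cells of the CD44-high reference. Among cells of 1500 to 4000 UMIs 16 of 531 genes passed, 14 of them higher in members.

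The libraries of Tnfrsf18, Maf, Tnfrsf4 and Izumo1r did not overlap in this comparison, although none of these genes passed. Other genes showed this too, Smc4 among them, and their share of all genes tested was not counted. Tnfrsf18 was at 363 and 558 CPM in members and at 109 and 61.8 in the CD44-high reference (log2 fold change 2.36 ± 0.42, edgeR adjusted p = 0.066). Maf was at 266 and 305 in members and at 27.3 and 53.0 in the CD44-high reference (2.54 ± 0.55, edgeR adjusted p = 0.14). Tnfrsf4 was at 416 and 533 in members and at 191 and 44.1 in the CD44-high reference (2.02 ± 0.49, edgeR adjusted p = 0.18). Izumo1r was at 789 and 825 in members and at 451 and 194 in the CD44-high reference (1.28 ± 0.31, edgeR adjusted p = 0.18). Of 13 tested effector and memory genes 0 passed, like the other genes of this comparison (0%). Members lay above the CD44-high reference in both libraries for 4 of them (S100a6, S100a10, S100a11 and Lgals3) and below it for 3 (Itgb1, Ahnak and Crip1), and the libraries of the other 6 overlapped. Without the share over all genes tested, these counts are no result about the list. S100a6 was at 975 and 990 in members and at 424 and 300.2 in the CD44-high reference (1.37 ± 0.36, edgeR adjusted p = 0.20), so its libraries did not overlap. S100a4 was at 363 and 279 in members and at 369 and 97.1 in the CD44-high reference (0.48 ± 0.50), and Lgals1 at 1834 and 1421 in members and at 2077 and 689 in the CD44-high reference (0.25 ± 0.35). Lef1 was at 168 and 114 in members and at 164 and 265 in the CD44-high reference (-0.77 ± 0.42). Ribosomal protein genes took 29.4% and 26.0% of UMIs in the CD44-high reference. Whether a gene's difference from the CD44-high reference is smaller than that from the whole reference was not tested, and the populations share cells.

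**Figure D5:**
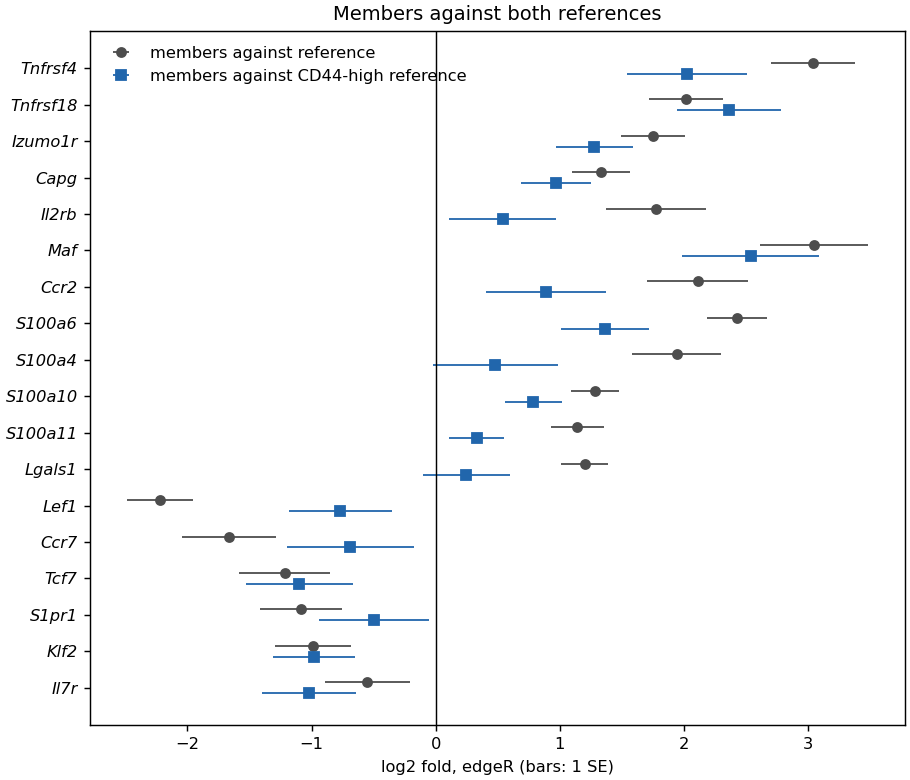
Log2 fold changes with bars of 1 standard error for members against the reference (circles) and against the CD44-high reference (squares). Tnfrsf18 lies at 2.02 and 2.36 and Maf at 3.05 and 2.54, S100a6 at 2.43 and 1.37, and S100a4 at 1.94 and 0.48; no gene passed the test against the CD44-high reference.

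Among the members themselves, CD44 varied widely. Members at or above the median CD44 count of their library had medians of 498.5 (Main1) and 289 counts (Main2), and those below it 134.5 and 147. They differed in depth too, as CD44-high members had medians of 3518.5 and 2254 UMIs and CD44-low members 2320 and 1504. Of 490 genes 0 (0%) passed edgeR's test between them, with 44 at an unadjusted p under 0.05, while DESeq2 called 1. S100a6 had the lowest p and was at 1384 and 1362 CPM in CD44-high members and at 246 and 320 in CD44-low members (log2 fold change 2.33 ± 0.23, edgeR adjusted p = 0.26). S100a4 was at 484 and 355 in CD44-high members and at 148 and 142 in CD44-low members (1.59 ± 0.31, edgeR adjusted p = 0.40). Bcl2 was at 166 and 197 in CD44-high members and at 370 and 711 in CD44-low members (-1.47 ± 0.32, edgeR adjusted p = 0.40). Izumo1r was at 747 and 770 in CD44-high members and at 862 and 924 in CD44-low members (-0.20 ± 0.18), and Tnfrsf4 at 484 and 434 in CD44-high members and at 296 and 711 in CD44-low members, so that its direction differed between the libraries. Among cells of 1500 to 4000 UMIs 272 genes were tested and 2 passed, S100a6 among them (3.11 ± 0.50, edgeR adjusted p = 0.032), while Izumo1r stood at 0.05 and S100a4, Bcl2 and Tnfrsf4 were too low to test.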

How the data were processed

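The deposited tables held raw UMI counts for 11713 genes and raw antibody tag counts for 30 antibodies, not normalized by the authors. The submitters' processing notes name Cell Ranger 3.0.2, bcl2fastq and mm10, with no roles given. Droplet prefixes m1 and m2 were read as Main1 and Main2, and the 4 labelled RNA samples of each cannot be separated, so each was 1 library (7964712 and 10174799 UMIs). Symbols came from GENCODE vM21 (GRCm38) for 11682 genes. No droplets were removed and no doublet caller was run. UMIs were summed per library and population and tested with edgeR 4.0.16 (R 4.3.3), TMM scaling and a minimum of 50 UMIs, adjusted over all genes tested. Members, cells with 1 rule UMI and reference formed 1 fit of 6 sums with library as a block, since populations of a library were prepared together. DESeq2 1.42.0 was an alternative. In counts simulated for this comparison over 1802 genes, 84.4% of 90 genes changed by a log2 fold change of 2, 26.7% of 90 changed by 1 and 0.123% of 1622 unchanged genes were called. The simulation gave all genes the same dispersion, with no library effect and no single-droplet excess. Its rates need not hold for the real counts.

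Named genes were the 12 highest and 12 lowest by log2 fold change among those past an adjusted p of 0.05, with the same sign in both libraries and no droplet holding over 25% of the UMIs of the higher population. The members, gene lists and rules were chosen with earlier results of these data known. Some listed genes and 1 antibody, though part of the fits and counts, are not reported here by name.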

Additional observations from a re-analysis of the deposited data

How the results depend on the processing

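Against the reference, 59 genes passed in the report. DESeq2 called 16, with 591 adjusted p-values not given, the fit with no replicate block 30, a minimum of 20 UMIs 114, no filter on low counts 89, leaving out B-gene or large droplets 26, and members by a Foxp3 UMI 10. The rule without Ikzf2, an alternative chosen after seeing the data like those without each other rule gene, gave 11. The library block is the only pairing, and against the CD44-high reference the fit with no replicate block called 0 genes. In that comparison a minimum of 20 UMIs gave 17 genes, no filter 33 and cells of 1500 to 4000 UMIs 16. Between CD44-high and CD44-low members, DESeq2 gave 1, scaling by total UMIs 19, no filter 17, no replicate block 1, the depth window 2, leaving out B-gene or large droplets 4 and CD44 as a share of antibody counts 5. Of the antibodies, 2 passed; DESeq2 called 7, no replicate block 1, counts per cell 1 (CD71), and the depth window, 3 or more rule UMIs and the added alternative without B-gene or large droplets 0 each. The cause of these differences was not tested.

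The members' share of the gate was 21.1%, and 20.8% to 21.4% with either library left out. It was 17.1% with 3 or more rule UMIs, 30.6% with 1 or more, 7.95% with a Foxp3 UMI, 17.4% among cells of 1500 to 4000 UMIs and 15.4% with the TCR and CD4 limits doubled. Over the 24 named genes and 349 alternative values, 0 changed sign and 53 lost the call. Values with a library left out could not change sign, since named genes were chosen for the same sign in both libraries. The other settings largely reuse the same cells, and settings in which a gene was too low to test are not among the 349. The count of 0 is therefore no measure of stability. With either library left out there is no residual degree of freedom, so log2 ratios stand in for a test. Values that changed sign were those of 2310001H17Rik without Ikzf2 (-0.37), of Cd3e (-0.27), Cd3g (-0.28) and Cd4 (-0.15) with members by a Foxp3 UMI, of Cd3g with no filter (-0.10) and in Main1 alone (-0.13, against 0.48 in Main2 alone), of Iglc1 in Main1 alone (0.47, against -7.35 in Main2 alone), and of CD90 on counts per cell (0.18). Depth limits the low genes: at 69 members, 3 cells with a UMI are 4.35%.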

Other observations

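A few further genes past the threshold were chosen after their values were seen. Hmgb2, which encodes a chromatin protein, was at 815 and 660 CPM in members, against 248 and 432 in the reference (log2 fold change 1.05 ± 0.27, edgeR adjusted p = 0.047), H2afz at 1205 and 964 in members, against 554 and 465 in the reference (edgeR adjusted p = 0.016), and Smc4 at 346 and 470 in members, against 160 and 211 in the reference (1.04 ± 0.23, edgeR adjusted p = 0.022). Of the 14 listed cell-cycle genes 4 were tested and Hmgb2 alone passed, against 3.29% of all genes. A single droplet held 26.4% of the reference UMIs of Hmgb2, and 7 of 14 alternative settings ended its call, as 6 of 14 did that of Smc4. Gimap7, a GTPase gene of lymphocytes, was at 514 and 685 CPM in members, against 231 and 211 in the reference (1.33 ± 0.22, edgeR adjusted p = 0.0026). Srgn, which encodes the granule proteoglycan serglycin, was at 797 and 990 in members, against 453 and 356 in the reference (1.04 ± 0.21, edgeR adjusted p = 0.0078).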
